A study of Homo sapiens with 6 samples.

Results

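The cell cycle and replication genes described here are 54 genes chosen by name. They code for the cyclins, kinases and inhibitors that move a cell through its cycle, the proteins that prepare and copy DNA, and the proteins that carry out mitosis. Each was read from the brightest array probe set that carries its symbol alone, and 52 of the 54 could be read in this way, out of 18417 genes in all. CDKN2C had no probe set in the table of names used here, and the probe set of CENPA, the histone variant of the centromere, also carries SLC35F6, so neither gene is described. Total RNA of MCF10A-SNAI1 cells and of MCF10A cells was measured on Affymetrix HuGene arrays, with 3 arrays per line. MCF10A is an immortalised but non-tumorigenic human mammary epithelial line. MCF10A-SNAI1 cells carry pBeta-SNAI1-Flag, a plasmid in which a CMV enhancer and a chicken beta-actin promoter drive FLAG-tagged SNAI1, the zinc finger repressor that starts an epithelial-mesenchymal transition. They were selected with puromycin and were made in another laboratory. The MCF10A cells are untransfected, so an effect of SNAI1 cannot be told apart from one of the plasmid, of puromycin or of a line kept separately. Both lines were grown in mammary epithelial growth medium with cholera toxin. The design calls the 3 arrays of a line biological replicates, and p-values measure only the spread between these arrays.

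In a dividing cell, D-type cyclins with CDK4 and CDK6, then cyclin E with CDK2, phosphorylate RB1 and release E2F transcription factors, which switch on the genes for DNA synthesis. CDC6 and CDT1 load the MCM helicase on origins in G1 phase, which is called licensing, and PCNA later clamps the polymerase to DNA. Genes of G2 phase and mitosis are driven by MYBL2 and FOXM1, largely through promoter sites called CHR elements, and in dog kidney epithelial cells SNAI1 is known to repress cyclin D2 and slow division. The arrays read RNA of whole unsorted cultures, so fewer cells in a phase and less RNA per cell cannot be told apart.

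Values are log2 levels as deposited, and a difference of 1 is 2-fold. Array medians lay between 6.04 and 6.09, and arrays correlated with r from 0.995 to 0.996 within a line and from 0.977 to 0.978 between the lines. The labels were checked first. SNAI1 read 10.50, 10.53 and 10.50 on the MCF10A-SNAI1 arrays, against 5.80, 5.73 and 5.77 on the MCF10A arrays. CDH1, the E-cadherin gene that SNAI1 represses, read 5.22, 5.03 and 4.97 on the MCF10A-SNAI1 arrays, against 9.01, 9.13 and 9.0 on the MCF10A arrays. All 7 measured basal epithelial markers were lower and 8 of 10 mesenchymal markers were higher in MCF10A-SNAI1 cells. These lists thus differed between the same lines that are compared for the members below. Their part in the member results was not tested. VIM averaged 11.67 in MCF10A-SNAI1 cells and 11.62 in MCF10A cells and did not pass the test. Of 7 blood and endothelial markers, CD68 alone was higher and the leukocyte gene PTPRC averaged 3.22 in MCF10A-SNAI1 cells and 3.23 in MCF10A cells.

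The members were tested with limma across all probe sets, and a member is said to rise or fall where its Benjamini-Hochberg adjusted p was below 0.01. At that threshold 21 of the 52 members were lower in MCF10A-SNAI1 cells, beside 11.2% of all genes. Another 4 members were higher, beside 12.1% of all genes, and 27 did not pass. The lower count was 12 without the MCF10A replicate 2 array, 13 without MCF10A replicate 1 and 13 without MCF10A-SNAI1 replicate 3. By its mean over the 6 arrays every measured member was brighter than the median probe set, and of the 11219 genes that were so, 16.4% were lower and 17% higher. The median difference of the 52 members was -0.21, against -0.013 over all genes. Most of these differences were small. With the further requirement of a 2-fold difference, 3 members were lower, CCND2, CDK6 and CDC6, beside 2.54% of all genes, and 0 were higher, beside 3.1%. The other 22 members that passed differed by 0.35 to 0.71, with a median size of 0.52. Of the 27 that did not pass, the 95% confidence intervals of all lay within a 2-fold difference in either direction, and 26 lay within 0.5 on the log2 scale. Of these 27 intervals 19 covered 0 and the others did not, so a member that did not pass is not shown to be unchanged. The MCF10A-SNAI1 arrays all read below the MCF10A arrays for 29 members, beside 24.6% of all genes, and all above them for 6 members, beside 23.7%.

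**Figure D1:**
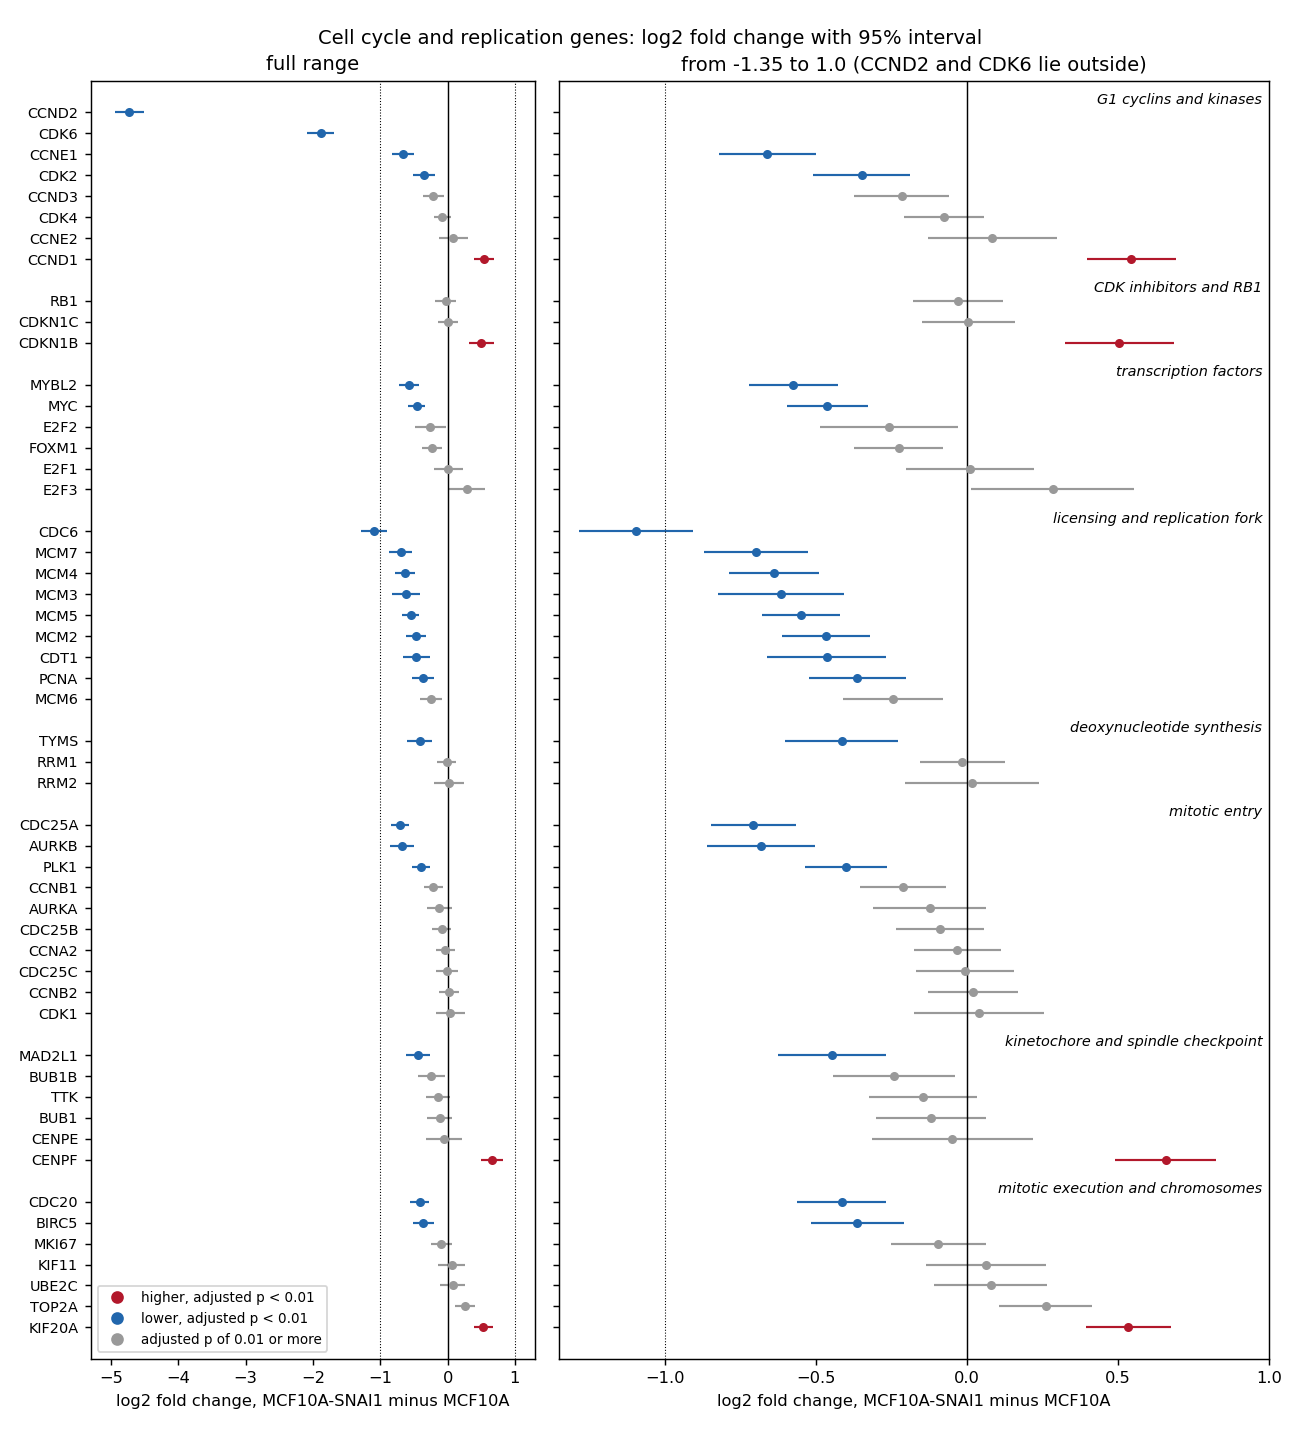
Difference in log2 level, MCF10A-SNAI1 minus MCF10A, for each of the 52 measured members, grouped by role, with bars for the 95% confidence interval (3 arrays per line). CCND2, CDK6 and CDC6 lie past the 2-fold line on the lower side, and 8 of the 9 licensing and replication fork genes were lower by the test.

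Among the 8 cyclins and kinases of G1 phase, 4 were lower and 1 was higher, beside 11.2% and 12.1% of all genes. CCND2, which codes for cyclin D2, had the largest difference of any member. It read 5.77, 5.79 and 6.01 in MCF10A-SNAI1 cells, against 10.54, 10.71 and 10.52 in MCF10A cells, and so lay 26.6-fold lower (log2 difference -4.73, SE 0.091, adjusted p = 2.97e-07). The gene stood at the 47.1st percentile of all probe sets in MCF10A-SNAI1 cells, against the 94.8th percentile in MCF10A cells. No detection calls were used, and CDKN2A and CDKN2B, the inhibitor genes that MCF10A is known to have lost by deletion, averaged 5.24 and 6.47 in MCF10A-SNAI1 cells and 5.29 and 6.62 in MCF10A cells. Levels of different probe sets cannot be set against each other, so these values show only that genes absent from the line still gave a reading, and how much of the CCND2 reading in MCF10A-SNAI1 cells comes from its RNA is unknown.

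CDK6, the kinase partner of the D-type cyclins, read 6.999, 7.22 and 7.22 in MCF10A-SNAI1 cells, against 8.98, 9.13 and 8.98 in MCF10A cells. This was a 3.7-fold lower level (log2 difference -1.89, SE 0.086, adjusted p = 1.1e-05). CCND1, the gene of cyclin D1, went the other way and read 10.26, 10.33 and 10.36 in MCF10A-SNAI1 cells, against 9.77, 9.83 and 9.73 in MCF10A cells. It was 1.46-fold higher (log2 difference 0.54, SE 0.062, adjusted p = 0.000747). The remaining partners moved less. CCND3, coding for cyclin D3, averaged 8.91 ± 0.0047 in MCF10A-SNAI1 cells and 9.12 ± 0.089 in MCF10A cells (SD, n = 3 each), and its limma adjusted p was 0.0576. CDK4 averaged 11.003 in MCF10A-SNAI1 cells and 11.08 in MCF10A cells and did not pass either. One D-type cyclin and one of its kinases thus fell strongly, another D-type cyclin rose by less than 2-fold, and the other kinase had a 95% interval of -0.21 to 0.06.

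Of the genes of the cyclin E step, CCNE1 read 7.58, 7.58 and 7.67 in MCF10A-SNAI1 cells, against 8.35, 8.20 and 8.26 in MCF10A cells, and was lower by 1.58-fold (limma adjusted p = 0.000443). CCNE2, the second cyclin E gene, averaged 7.85 in MCF10A-SNAI1 cells and 7.77 in MCF10A cells, with overlapping arrays. Their kinase CDK2 averaged 8.95 in MCF10A-SNAI1 cells and 9.30 in MCF10A cells and was lower by 1.27-fold (limma adjusted p = 0.00862).

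Of the CDK inhibitors, CDKN1B was higher. This gene codes for p27, which holds cyclin E and CDK2 inactive and also binds the cyclin D kinases. It read 8.27, 8.33 and 8.44 in MCF10A-SNAI1 cells, against 7.75, 7.85 and 7.93 in MCF10A cells (log2 difference 0.50, SE 0.076, adjusted p = 0.00271). CDKN1C, coding for the related p57, read 8.09, 8.04 and 7.93 in MCF10A-SNAI1 cells, against 8.01, 8.02 and 8.01 in MCF10A cells. RB1, the retinoblastoma gene, read 9.29, 9.28 and 9.20 in MCF10A-SNAI1 cells, against 9.28, 9.35 and 9.23 in MCF10A cells. Neither CDKN1C nor RB1 passed the test, and the arrays of the lines overlapped for both. CDKN1A, the p21 gene and not a member, averaged 8.71 in MCF10A-SNAI1 cells and 8.73 in MCF10A cells, with an adjusted p of 0.862 in the limma fit.

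**Figure D2:**
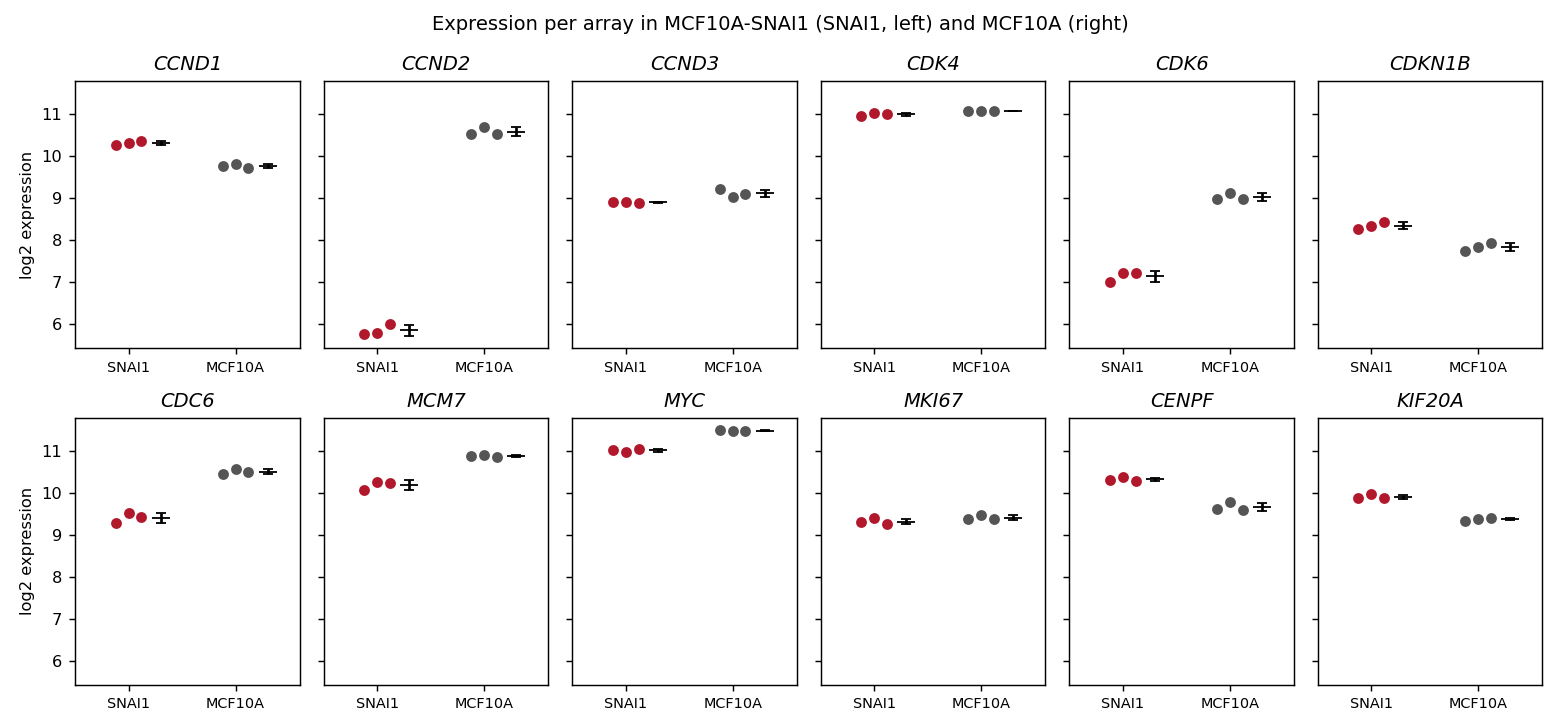
Log2 level on each of the 6 arrays for 12 members of the G1, replication and mitotic groups, with MCF10A-SNAI1 arrays on the left of each panel, MCF10A arrays on the right and bars for the mean and SD of 3 arrays. The lines are fully separated for CCND2, CDK6 and CDC6 and overlap for MKI67.

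A further 27 genes of CDK inhibitors, RB1 relatives, E2F factors and their regulators that are not members had 4 lower and 4 higher, or 14.8% in each direction, which is near the shares of all genes. RBL1 and RBL2 code for p107 and p130, the pocket proteins of dividing and of resting cells. RBL1 averaged 8.47 in MCF10A-SNAI1 cells and 8.87 in MCF10A cells and was lower (log2 difference -0.40), while RBL2 averaged 8.40 in MCF10A-SNAI1 cells and 8.004 in MCF10A cells and was higher (log2 difference 0.40). E2F5 (-0.84), E2F7 (-0.35) and SKP2 (-0.31), the last coding for the ubiquitin ligase subunit that marks p27 for destruction, were also lower. LIN37, a subunit of the DREAM complex that holds cell cycle genes silent in resting cells, was higher (0.78), as were CCNG1 (0.65) and TFDP2 (0.44), the gene of a dimer partner of E2F factors.

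Of the 6 transcription factors among the members, 2 were lower and 0 higher, beside 11.2% and 12.1% of all genes. MYBL2, the B-MYB gene, read 9.71, 9.72 and 9.75 in MCF10A-SNAI1 cells, against 10.36, 10.31 and 10.23 in MCF10A cells (log2 difference -0.58, adjusted p = 0.000579). MYC read 11.02, 10.99 and 11.06 in MCF10A-SNAI1 cells, against 11.51, 11.48 and 11.47 in MCF10A cells (log2 difference -0.46, adjusted p = 0.00102). The lines did not overlap for either gene. E2F3, an activator E2F, read 6.94, 7.07 and 7.11 in MCF10A-SNAI1 cells, against 6.87, 6.88 and 6.51 in MCF10A cells, with an adjusted p of 0.136 in the limma fit. E2F1 averaged 8.08 in MCF10A-SNAI1 cells and 8.07 in MCF10A cells, and E2F2 averaged 6.42 in MCF10A-SNAI1 cells and 6.68 in MCF10A cells. FOXM1, the forkhead factor of G2 phase genes, averaged 9.29 in MCF10A-SNAI1 cells and 9.52 in MCF10A cells, with a limma adjusted p of 0.0385. None of these 4 passed the test, although the arrays did not overlap for E2F3 and FOXM1.

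Among 12 partners and antagonists of MYC that are not members, 3 were lower and 1 was higher. These are 25% and 8.33% of a short list, beside 11.2% and 12.1% of all genes. MXD4 and MXD1 both code for MAX-binding repressors that oppose MYC. MXD4 averaged 9.08 in MCF10A-SNAI1 cells and 7.77 in MCF10A cells and was 2.48-fold higher (limma adjusted p = 2.97e-05), while MXD1 averaged 7.41 in MCF10A-SNAI1 cells and 8.44 in MCF10A cells and was 2.05-fold lower (limma adjusted p = 0.000172). MGA (-0.61) and MLX (-0.46), both dimer partners in this network, were lower as well.

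The genes of licensing and the replication fork were the group with the most members lower, 8 of 9, beside 11.2% of all genes. In this group 0 were higher, beside 12.1% of all genes, and the median difference was -0.55. CDC6, the loader of the MCM helicase, read 9.29, 9.53 and 9.42 in MCF10A-SNAI1 cells, against 10.45, 10.57 and 10.51 in MCF10A cells, a 2.14-fold lower level (log2 difference -1.09, SE 0.079, adjusted p = 9.21e-05). MCM7 read 10.07, 10.27 and 10.24 in MCF10A-SNAI1 cells, against 10.89, 10.91 and 10.87 in MCF10A cells (log2 difference -0.70, adjusted p = 0.00047). MCM4 read 9.29, 9.41 and 9.38 in MCF10A-SNAI1 cells, against 9.96, 10.04 and 9.995 in MCF10A cells (log2 difference -0.64, adjusted p = 0.000364). For each of these the highest MCF10A-SNAI1 array lay below the lowest MCF10A array.

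The other subunits of the helicase followed in the same direction. MCM3 (-0.61), MCM5 (-0.55) and MCM2 (-0.47) were lower, and MCM6 averaged 9.73 in MCF10A-SNAI1 cells and 9.97 in MCF10A cells with an adjusted p of 0.0449 in the limma fit. CDT1, the second loading factor, was lower as well (-0.46). PCNA, the sliding clamp, read 9.99, 10.12 and 9.996 in MCF10A-SNAI1 cells, against 10.44, 10.41 and 10.34 in MCF10A cells (log2 difference -0.36, adjusted p = 0.00723). All 9 genes of the group, MCM6 included, read lower on every MCF10A-SNAI1 array than on any MCF10A array. Of all genes, 24.6% did so. Without the MCF10A replicate 2 array, 5 of the 9 passed the test.

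The rest of the replication machinery was read from a list that was also chosen with earlier results of these data known. Of its 47 measured genes, which are not members, 26 were lower (55.3%), beside 11.2% of all genes. None was higher, beside 12.1% of all genes. The median difference was -0.35, and leaving out 1 array gave 15 to 18 lower. The list is called the other origin and fork genes here. It also holds TK1 and DUT, whose products supply deoxynucleotides, UNG, a repair gene, and SLBP, whose product binds histone RNA. TK1 and UNG, each at -0.38, are among the 26 that were lower. GINS2, a subunit of the complex that activates the MCM helicase, averaged 7.88 in MCF10A-SNAI1 cells and 8.97 in MCF10A cells and was 2.13-fold lower (limma adjusted p = 6.49e-05). TIPIN (-0.82), which steadies stalled forks, GMNN (-0.76), the geminin gene whose product blocks CDT1 after licensing, and RFC2 (-0.75), a subunit of the clamp loader, followed it. GMNN, an inhibitor of licensing, thus fell together with the licensing factors.

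Promoters of the group are shown with their matches to the letters of the E2F motif. Windows of 300 bases, 250 before the start and 50 from it on, were taken from RefSeq on GRCh38.p14, and 41 of the 54 members had at least 1, with 59 windows in all. The 3 windows printed here run 5′ to 3′ along the gene and have the E2F motif in capitals, searched on both strands as TTTCCCGC, TTTCGCGC, TTTGCCGC or TTTGGCGC. CDC6 lies on the plus strand at chr17:40287629-40287928, MCM3 on the minus strand at chr6:52284693-52284992, and the first of the 3 MCM7 windows on the minus strand at chr7:100101348-100101647.
CDC6: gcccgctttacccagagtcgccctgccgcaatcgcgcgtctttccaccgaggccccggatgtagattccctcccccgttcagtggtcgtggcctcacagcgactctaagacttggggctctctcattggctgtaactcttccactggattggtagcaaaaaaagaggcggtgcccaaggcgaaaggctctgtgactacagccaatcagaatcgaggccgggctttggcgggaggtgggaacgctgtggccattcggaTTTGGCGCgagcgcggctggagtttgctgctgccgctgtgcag
MCM3: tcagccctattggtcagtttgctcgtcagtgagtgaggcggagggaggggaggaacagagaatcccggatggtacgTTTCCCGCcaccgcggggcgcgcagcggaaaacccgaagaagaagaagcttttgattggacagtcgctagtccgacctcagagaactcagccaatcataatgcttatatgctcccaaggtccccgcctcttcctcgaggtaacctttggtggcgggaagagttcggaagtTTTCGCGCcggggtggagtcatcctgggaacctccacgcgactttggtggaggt
MCM7: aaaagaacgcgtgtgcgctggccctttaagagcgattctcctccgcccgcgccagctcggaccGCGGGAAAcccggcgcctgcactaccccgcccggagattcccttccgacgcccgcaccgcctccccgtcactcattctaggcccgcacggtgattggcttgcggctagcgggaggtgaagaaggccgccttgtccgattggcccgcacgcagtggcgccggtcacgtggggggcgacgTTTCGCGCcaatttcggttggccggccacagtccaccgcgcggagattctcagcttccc
In CDC6 the single match starts 7 bases after the gene's start base. In MCM3 the matches start at -174 and -4, and in MCM7 at -187, on the opposite strand, and at -9. A match of the E2F letters was found in 7 of the 10 windows of licensing and fork members, covering all 7 of these genes that have a window, against 3.31% of all 35116 windows. Of the origin and fork genes that are not members, 32.8% of windows held one. Over all members the share was 25.4% of windows. A match is a description of letters, and binding was not measured.

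The 3 members that code for enzymes making deoxynucleotides for S phase were less uniform. TYMS, the thymidylate synthase gene, read 9.82, 10.04 and 9.84 in MCF10A-SNAI1 cells, against 10.28, 10.31 and 10.36 in MCF10A cells, and was lower (log2 difference -0.42, adjusted p = 0.00783). RRM1, the large subunit of ribonucleotide reductase, read 10.42, 10.52 and 10.48 in MCF10A-SNAI1 cells, against 10.49, 10.52 and 10.46 in MCF10A cells. RRM2, its small subunit, read 9.94, 10.26 and 10.06 in MCF10A-SNAI1 cells, against 10.14, 10.06 and 10.01 in MCF10A cells. The reductase genes overlapped between the lines and did not pass the test. Of the deoxynucleotide genes that are not members, TK1 was lower (-0.38) and DUT (-0.41) did not pass.

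**Figure D3:**
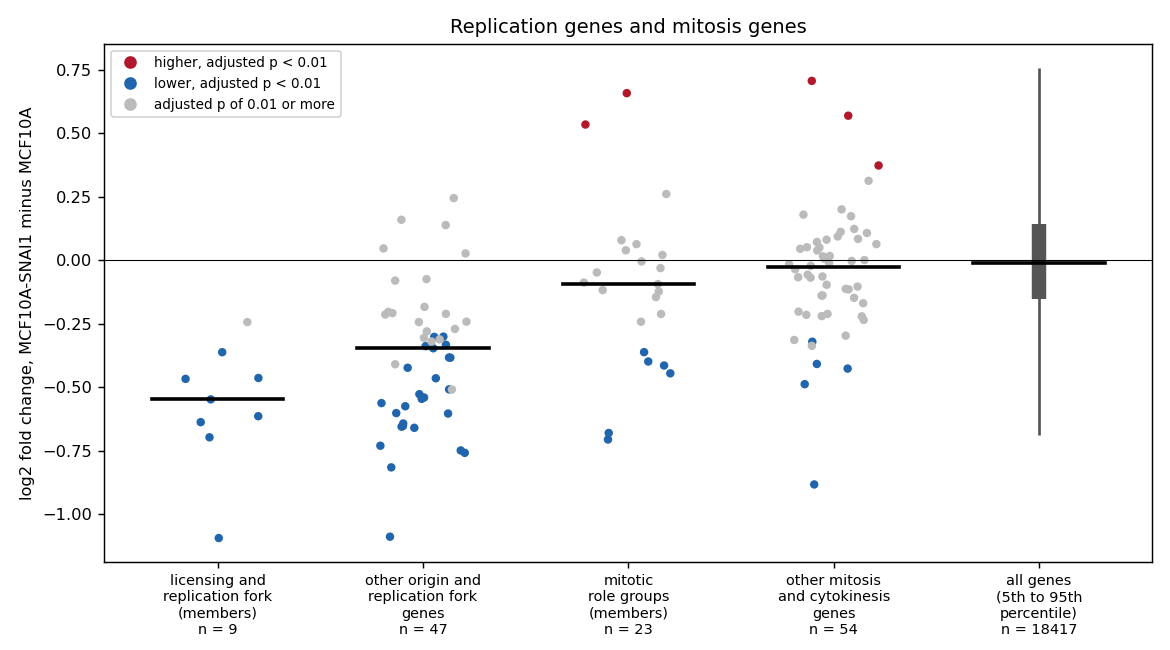
Difference in log2 level, MCF10A-SNAI1 minus MCF10A, for every measured gene of the licensing and fork members, the other origin and fork genes, the mitotic members and the other mitosis genes, 1 point per gene, with the quartiles and the 5th to 95th percentiles of all genes in grey. The medians of the replication groups are -0.55 and -0.35, and those of the mitotic groups are -0.09 and -0.03.

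The 23 members that act in mitosis had a median difference of -0.09, and 6 were lower, 2 were higher and 15 did not pass. The shares were 26.1% lower and 8.7% higher, beside 11.2% and 12.1% of all genes. MKI67, the Ki-67 proliferation marker, read 9.31, 9.40 and 9.27 in MCF10A-SNAI1 cells, against 9.38, 9.49 and 9.39 in MCF10A cells, with a limma adjusted p of 0.409. TOP2A, the topoisomerase that untangles sister chromatids, read 10.52, 10.60 and 10.57 in MCF10A-SNAI1 cells, against 10.27, 10.39 and 10.25 in MCF10A cells, with a limma adjusted p of 0.0259. Neither gene passed the test, and the arrays overlapped for MKI67 and did not for TOP2A.

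Of the 10 genes of mitotic entry, 3 were lower, beside 11.2% of all genes. CDC25A, the phosphatase that activates CDK2 and CDK1, read 7.14, 7.20 and 7.17 in MCF10A-SNAI1 cells, against 7.92, 7.88 and 7.83 in MCF10A cells (log2 difference -0.71, SE 0.059, adjusted p = 0.000177). AURKB, the kinase of the chromosome passenger complex, read 8.44, 8.50 and 8.58 in MCF10A-SNAI1 cells, against 9.30, 9.12 and 9.15 in MCF10A cells (log2 difference -0.68, adjusted p = 0.000663). PLK1, the polo-like kinase, read 10.41, 10.44 and 10.37 in MCF10A-SNAI1 cells, against 10.82, 10.82 and 10.77 in MCF10A cells (log2 difference -0.40, adjusted p = 0.00218). The core mitotic kinase and its cyclins did not pass. CDK1 averaged 8.46 in MCF10A-SNAI1 cells and 8.42 in MCF10A cells, and CCNA2, CCNB1 and CCNB2, its cyclins, had differences of -0.03, -0.21 and 0.02. The phosphatases CDC25B and CDC25C and the spindle pole kinase AURKA had differences of -0.09, -0.01 and -0.12. Of the CDC25 genes, CDC25A was the one that passed the test.

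In the group of 6 kinetochore and spindle checkpoint genes, 1 was higher and 1 lower, beside 12.1% and 11.2% of all genes. CENPF, a large coiled-coil protein of the outer kinetochore, read 10.32, 10.37 and 10.29 in MCF10A-SNAI1 cells, against 9.63, 9.78 and 9.60 in MCF10A cells (log2 difference 0.66, SE 0.071, adjusted p = 0.000566). MAD2L1, the MAD2 checkpoint gene, read 8.80, 9.02 and 8.95 in MCF10A-SNAI1 cells, against 9.41, 9.38 and 9.32 in MCF10A cells (log2 difference -0.45, adjusted p = 0.00469). BUB1B, the BUBR1 gene, read 8.37, 8.45 and 8.36 in MCF10A-SNAI1 cells, against 8.53, 8.80 and 8.58 in MCF10A cells, with an adjusted p of 0.0889 in the limma fit. The checkpoint kinases TTK (-0.15) and BUB1 (-0.12) and the kinetochore motor CENPE (-0.05) did not pass.

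Among the 7 genes of chromosome movement, anaphase and division, 1 was higher and 2 were lower, beside 12.1% and 11.2% of all genes. KIF20A, a kinesin of cytokinesis, read 9.89, 9.97 and 9.89 in MCF10A-SNAI1 cells, against 9.35, 9.39 and 9.41 in MCF10A cells (log2 difference 0.53, SE 0.059, adjusted p = 0.000666). CDC20, the activator of the anaphase-promoting complex, read 10.61, 10.59 and 10.54 in MCF10A-SNAI1 cells, against 11.03, 11.03 and 10.92 in MCF10A cells (log2 difference -0.42, adjusted p = 0.00261). BIRC5, the survivin gene and a partner of AURKB, read 8.73, 8.87 and 8.85 in MCF10A-SNAI1 cells, against 9.16, 9.17 and 9.21 in MCF10A cells (log2 difference -0.36, adjusted p = 0.00616). Without any 1 of the arrays BIRC5 no longer passed, and AURKB did. UBE2C, the ubiquitin-conjugating enzyme of the anaphase-promoting complex, and KIF11, the motor that pushes spindle poles apart, had differences of 0.08 and 0.06 and did not pass.

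Of 54 mitosis and cytokinesis genes that are not members, 5 were lower and 3 higher, with a median difference of -0.03. These are 9.26% and 5.56%, both under the 11.2% and 12.1% of all genes. ASPM (0.71), a spindle pole protein, NUF2 (0.57), a subunit of the outer kinetochore complex, and NUSAP1 (0.37), a microtubule-bundling protein, were higher, as CENPF was. ASPM, NUF2 and CENPF all lie on chromosome 1. Of the 20 measured genes nearest to each, 9, 7 and 6 were higher, beside 12.1% of all genes. Around NUSAP1, on chromosome 15, 0 of 20 were higher and 4 were lower. KIF14, which was lower, also lies on chromosome 1, and around it 3 of 20 were higher and 2 were lower. The part of gene position in these differences was not tested. The largest differences among the lower genes were those of PKMYT1 (-0.88), the kinase that holds CDK1 inactive, KIF14 (-0.49), NCAPH (-0.43) and CDC27 (-0.41). CDC25A and PKMYT1, an activator and an inhibitor of cyclin-dependent kinases, both fell.

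Promoters of mitotic members are shown for contrast with those of the licensing group, with CHR elements, searched on both strands as TTTGAA or TTCGAA, in capitals. MKI67 lies on the minus strand at chr10:128126374-128126673 and CENPF on the plus strand at chr1:214602945-214603244, both on GRCh38.p14.
MKI67: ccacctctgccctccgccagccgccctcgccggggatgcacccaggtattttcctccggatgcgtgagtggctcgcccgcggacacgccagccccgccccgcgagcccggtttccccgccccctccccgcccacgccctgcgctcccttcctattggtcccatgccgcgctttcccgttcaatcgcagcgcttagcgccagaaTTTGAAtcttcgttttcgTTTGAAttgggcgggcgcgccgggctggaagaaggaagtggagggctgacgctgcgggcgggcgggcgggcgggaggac
CENPF: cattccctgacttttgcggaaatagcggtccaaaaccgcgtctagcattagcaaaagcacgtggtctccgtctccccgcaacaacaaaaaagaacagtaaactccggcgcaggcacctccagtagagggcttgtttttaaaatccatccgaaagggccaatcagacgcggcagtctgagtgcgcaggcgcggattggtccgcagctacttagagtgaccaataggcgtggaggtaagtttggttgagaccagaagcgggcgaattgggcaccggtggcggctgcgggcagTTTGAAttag
The MKI67 matches start at -47 and -29 from the start base, and the CENPF match starts at 40. The CHR letters stood in 16 of 28 windows of the mitotic members (57.1%) and in 66% of windows of the mitosis genes that are not members, against 16.4% of all windows. They stood in 1 of the 10 windows of the licensing and fork members. CCAAT boxes, which often lie close to CHR elements, stood in 66.1% of member windows, against 34.6% of all windows. CAGGTG, the E-box that SNAI1 binds, stood in 20.3% of member windows, against 20.6% of all windows, and CACGTG, the E-box of MYC, in 20.3% of member windows, against 7.26% of all windows. CCND2, the member with the largest difference, had no window, so these shares say nothing about its promoter. By result, E2F letters stood in 8 of 15 members with a window that were lower, in 0 of 3 that were higher and in 5 of 21 that did not pass. Those 8 are CDC25A, TYMS and CDC6, CDT1, MCM2, MCM3, MCM7 and PCNA, which were already counted in the licensing and fork group. CHR letters stood in 3 of the 15 lower members, in 1 of the 3 higher members and in 12 of the 21 that did not pass. CAGGTG stood in 2 of the 15 lower members, in 0 of the 3 higher members and in 7 of the 21 that did not pass. Among genes on the array with a window, 5.51% held E2F letters, 17.4% held CHR letters and 24.7% held CAGGTG.

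**Figure D4:**
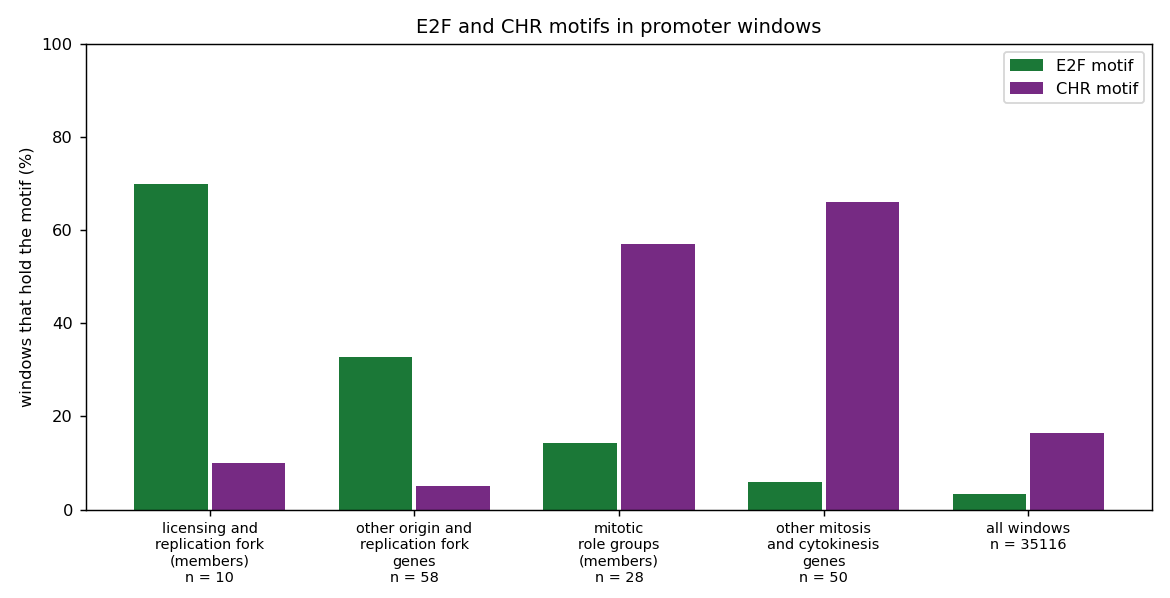
Percent of 300-base promoter windows that hold the E2F or the CHR motif, for the licensing and fork members, the other origin and fork genes, the mitotic members, the other mitosis genes and all windows. E2F letters are in 7 of 10 windows of the licensing and fork members and in 14.3% of those of the mitotic members, while CHR letters are in 1 of 10 and in 57.1%.

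The members were also compared between the arrays of a line. Their median level was 9.27, 9.37 and 9.27 on the MCF10A-SNAI1 arrays, against 9.55, 9.51 and 9.46 on the MCF10A arrays. Their median deviation from the line mean ran from -0.051 to 0.046 over the 6 arrays, against -0.0032 to 0.0044 over all probe sets. On the MCF10A-SNAI1 replicate 2 array 45 of 52 members read above their line mean, and on the replicate 1 array 10 of 52 did, so members of a line did not vary independently of each other. With each array left out in turn, 15 of the 25 members that passed did so in all 6 fits. These were MYC, MCM7, MCM5, MYBL2, CDC6, MCM4, MCM2, AURKB, CCND2, CDK6, CCNE1 and CDC25A on the lower side and CCND1, CENPF and KIF20A on the higher side. PCNA, CDK2 and BIRC5 passed in 0 of the 6, with limma adjusted p up to 0.0329, 0.0377 and 0.0288. Gene position was looked at through the 10 nearest genes on each side. Around the 25 members that passed, the median difference of these neighbours lay between -0.24 and 0.20. For MYC, 9 of 20 neighbours were lower and 1 was higher, with a median of -0.18. For CDC25A, 4 of 20 were lower, with a median of -0.20, and for BIRC5, 7 of 20 were lower, with a median of -0.24. For CENPF, 6 of 20 were higher, with a median of 0.20. Other neighbours went against their member. For MYBL2, 8 of 20 were higher and 0 lower, and for CDK6, 4 were higher and 1 lower, both with a median of 0.17. Of all genes, 11.2% were lower and 12.1% higher. Copy number was not measured.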

How the data were processed

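Total RNA of MCF10A-SNAI1 and MCF10A cells was hybridised on 6 arrays, 3 per line. The values, log2 levels of 33297 probe sets, were used as deposited. The methods state GC RMA normalization in GeneSpring GX, while the processing notes of the submitters list GCOS, MAS5 and Affymetrix Expression Console 1.1, and the sources used here do not say which of them gave these values. The table holds no detection calls, so no filter was applied, and the number of arrays limits the precision. The labels and the methods differ in the RNA amount labelled.

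The lines were compared in R 4.3.3 with limma 3.58.1 (lmFit and eBayes, unpaired, Benjamini-Hochberg over all probe sets), with an adjusted p below 0.01, and with an absolute log2 fold change above 1 where a 2-fold difference is stated, as in the methods. The fit was tested on simulated data. Of the probe sets, 19460 carry 1 symbol, 1754 several and 12083 none in the platform table used here. The brightest probe set with 1 symbol gave each of 18417 genes. BIRC5 has 2, and the dimmer, at 4.87 in MCF10A-SNAI1 cells and 5.09 in MCF10A cells, was not used.

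The members, the role groups and the further lists were chosen with earlier results of these data known, so no list was tested. Values on every array are given for SNAI1, CDH1, members past both thresholds, the 3 largest differences of each role group, and MKI67, TOP2A, PCNA, CCND1, RB1 and MYC. Of each further list, up to 4 genes per direction are named, with CDKN1A, CDKN2A and CDKN2B, and CD68, PTPRC and VIM were picked after their values were seen. Alternatives were array scaling, a replicate block, leaving out each array, filters on dim probe sets, variance moderation, the methods' t-test, the choice of probe set and an adjusted p below 0.05.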

Additional observations from a re-analysis of the deposited data

How the results depend on the processing

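CCND2, CDK6 and CDC6 were past both thresholds and 0 members were higher by 2-fold under every alternative run, and the genes past both thresholds numbered 857 to 1054, against 1038 in the fit reported. The count of members that passed at any fold moved more. The 21 lower members became 12 to 16 with 1 array left out, 14 with the methods' t-test and 24 at an adjusted p below 0.05, and the 4 higher members became 3 to 4 with 1 array left out. A fit without 1 array has fewer values, and otherwise the cause was not tested. Of the 9 licensing and fork genes, 5 to 6 were lower with 1 array left out and 5 by the methods' t-test, against 8. Of the other origin and fork genes, 15 to 18 were lower with 1 array left out, against 26. The median difference of the members lay between -0.23 and -0.18.

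Same-numbered arrays of the lines deviated from their line means with correlations of 0.115, 0.122 and -0.0062 over all probe sets. Over the members these were 0.296, 0.162 and -0.039, and 4 of 6 arrays correlated best with their own number. The methods state an unpaired test, and the numbers were not taken to pair the arrays in the fit reported. With the replicate block, 14 members, 6 licensing and fork genes and 16 other origin and fork genes were lower.

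Changes of sign came from members that did not pass the test. With quantile normalization RRM1 was 0.0056, and with median centring E2F1 was -0.0014 and CDKN1C -0.0070. With 1 array left out, RRM1 ranged over -0.0387 to 0.0129, RRM2 over -0.0697 to 0.0918, CCNB2 over -0.0186 to 0.0518, RB1 over -0.0582 to 0.0033, KIF11 over -0.0232 to 0.107, CDK1 over -0.0411 to 0.0950, E2F1 over -0.0510 to 0.0789, CDKN1C over -0.0305 to 0.0489, CDC25C over -0.0561 to 0.0399 and CENPE over -0.146 to 0.0463.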
